A study of Ovis aries with 27 samples.

Results

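The expression of 8 genes of the connective tissue was followed in the septum of the fetal sheep heart, at 2 ages and with or without raised maternal cortisol. They are the fibrillar collagen genes COL1A2 and COL3A1, the type VI collagen gene COL6A1, the small proteoglycans DCN (decorin) and BGN (biglycan), the matrix glycoprotein FBLN1 (fibulin-1), the matricellular protein CCN1 (also called CYR61) and VIM (vimentin). VIM is not a matrix gene and stands in the set as a marker of fibroblasts. The genes were taken as a named set and found by symbol, gene identifier or description in the scanner files. They were measured by 16 of the 12778 probes tested, and make up 8 of the 708 named genes among these probes. All 16 probes lay well above background on 27 of 27 arrays.

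Each of the 27 fetuses gave 1 array of septum RNA labelled with Cy3. Control fetuses came from ewes given vehicle, and cortisol fetuses from ewes given cortisol at 1 mg/kg/d by continuous infusion. At 130 d of gestation 6 control and 6 cortisol fetuses were sampled. At 140 d, near term, there were 8 controls and 7 cortisol fetuses. The labels give about 10 d of infusion for the younger cohort, sampled from 129 to 131 d, and about 25 d for the older one, sampled from 139 to 144 d. Another label gives a start near 115 d for all ewes. No genotype or transgene is given for any group. Each age was a cohort of its own with its own duration of infusion, and these cannot be told apart from age. The design calls the fetuses singletons but has the 8 older controls from 7 ewes, with 1 set of twins; which fetuses these were is not given, so p-values treat all fetuses as independent.

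Collagens I and III form the striated fibres that tie heart muscle cells together and carry tension, and type VI collagen forms a fine beaded network next to cells. Decorin and biglycan are leucine-rich proteoglycans that bind collagen fibrils and growth factors, fibulin-1 binds fibronectin and elastic fibres, and CCN1 is a secreted early-response protein that signals through integrins. In the heart these proteins come mostly from fibroblasts, while vimentin is the intermediate filament of fibroblasts, endothelial cells and other mesenchymal cells.

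Collagen mRNA can be recognised in the probe sequences themselves. Glycine recurs at a fixed step along the collagen triple helix, and its codons are GGN, so a probe inside the helix-coding part holds GGN every 9 bases. The 3 probes below are shown because their values carry the age results for COL1A2 and COL3A1; capitals mark GGN triplets spaced 9 bases apart, and all are written as in the scanner files.
COL3A1 probe A_70_P006991: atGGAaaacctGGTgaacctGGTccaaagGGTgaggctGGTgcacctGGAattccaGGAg
COL3A1 probe A_70_P048191: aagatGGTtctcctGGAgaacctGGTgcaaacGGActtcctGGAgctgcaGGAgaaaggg
COL1A2 probe A_70_P024601: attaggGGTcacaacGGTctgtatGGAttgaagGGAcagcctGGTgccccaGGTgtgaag

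The other COL3A1 probes do not hold the repeat and are near copies of each other. They are shown because they differ in which side of the threshold they fall on, and capitals mark the 58 bases they share.
COL3A1 probe A_70_P016306: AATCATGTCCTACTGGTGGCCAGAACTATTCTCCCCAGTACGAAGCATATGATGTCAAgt
COL3A1 probe A_70_P016307: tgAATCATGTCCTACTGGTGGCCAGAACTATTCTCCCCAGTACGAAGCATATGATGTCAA
The probe pairs of the other genes share sequence too. The CCN1 probes overlap by 59 bases, the FBLN1 probes by 56 and the VIM probes by 56, so they do not measure these genes independently. The pairs of DCN and COL6A1 lie apart. Both COL6A1 probes carry that symbol, while the description on the array names the alpha 3 chain of type VI collagen, so which chain they measure is not settled here.

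Levels are on a log2 scale and relative to the 75th percentile intensity of the same array, so a difference of 1 is a doubling, and levels of different probes are not compared. A gene with several probes is represented by its brightest one on average. The 75th percentile intensity was lower at the older age (1160 ± 101 in controls at 130 d and 838 ± 59.3 at 140 d, mean ± SD, n = 6 and n = 8). Arrays lay on 5 slides. Myoglobin (MB), the oxygen store of heart muscle and the only heart muscle marker of 13 listed that was measured, had a list level between 7.51 and 8.83 on all arrays. Markers of cells were counted as called by the test given below. In controls 3 of 5 immune genes (FCER1G, ITGB2 and LYZ) were called lower at 140 d than at 130 d. Of the red blood cell genes 3 of 3 (AHSP, HBB and HBG) were called lower, and of the endothelial genes 0 of 5. Called higher were 3 of 4 adipocyte genes (LEP, LPL and PLIN1) and MB. In cortisol fetuses 0 of 5 immune and 1 of 3 red blood cell genes (HBG) were called lower. There 2 of 4 adipocyte genes (LPL and PLIN1) were called higher. A gene not called could still have a lower mean. All 3 red blood cell genes did in cortisol fetuses (median difference -1.92), and 3 of 5 endothelial genes did in controls (median -0.21). The mean level of the 5 immune markers ranged from -2.60 to -1.19 in controls at 130 d and from -3.33 to -2.59 at 140 d, and from -2.84 to -2.04 and -3.28 to -1.65 in cortisol fetuses. The part of these markers and of array intensity in the results below was not tested. In pieces of whole tissue, fewer fibroblasts and less RNA per fibroblast cannot be told apart.

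From 130 d to 140 d, 7 of the 8 genes had a lower mean in controls and 6 of 8 in cortisol fetuses. Of all probes, 50.9% had a lower mean in controls and 56.2% in cortisol fetuses. At the representative probe, 0 of the 8 genes passed the test in either arm. The test was limma's moderated test with Benjamini-Hochberg adjustment over all probes, at an adjusted p under 0.05. It called 19.1% of all probes in controls (9.77% higher and 9.35% lower) and 13.5% in cortisol fetuses (4.94% higher and 8.52% lower). At an unadjusted p under 0.05 it took in 2 of the 8 genes in controls (DCN and VIM) and 1 in cortisol fetuses (COL3A1), beside 33.8% and 28.1% of all probes. By probe it took in 9 of 16 in controls and 4 of 16 in cortisol fetuses, and several of these probes measure the same gene. The median difference of the 8 genes was -0.45 in controls and -0.18 in cortisol fetuses, beside -0.01 and -0.04 over all probes tested. Counted by probe, 2 of 16 were called lower in controls, beside 9.35% of all probes, and 1 of 16 in cortisol fetuses, beside 8.52%. All of these calls were for COL3A1.

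**Figure D1:**
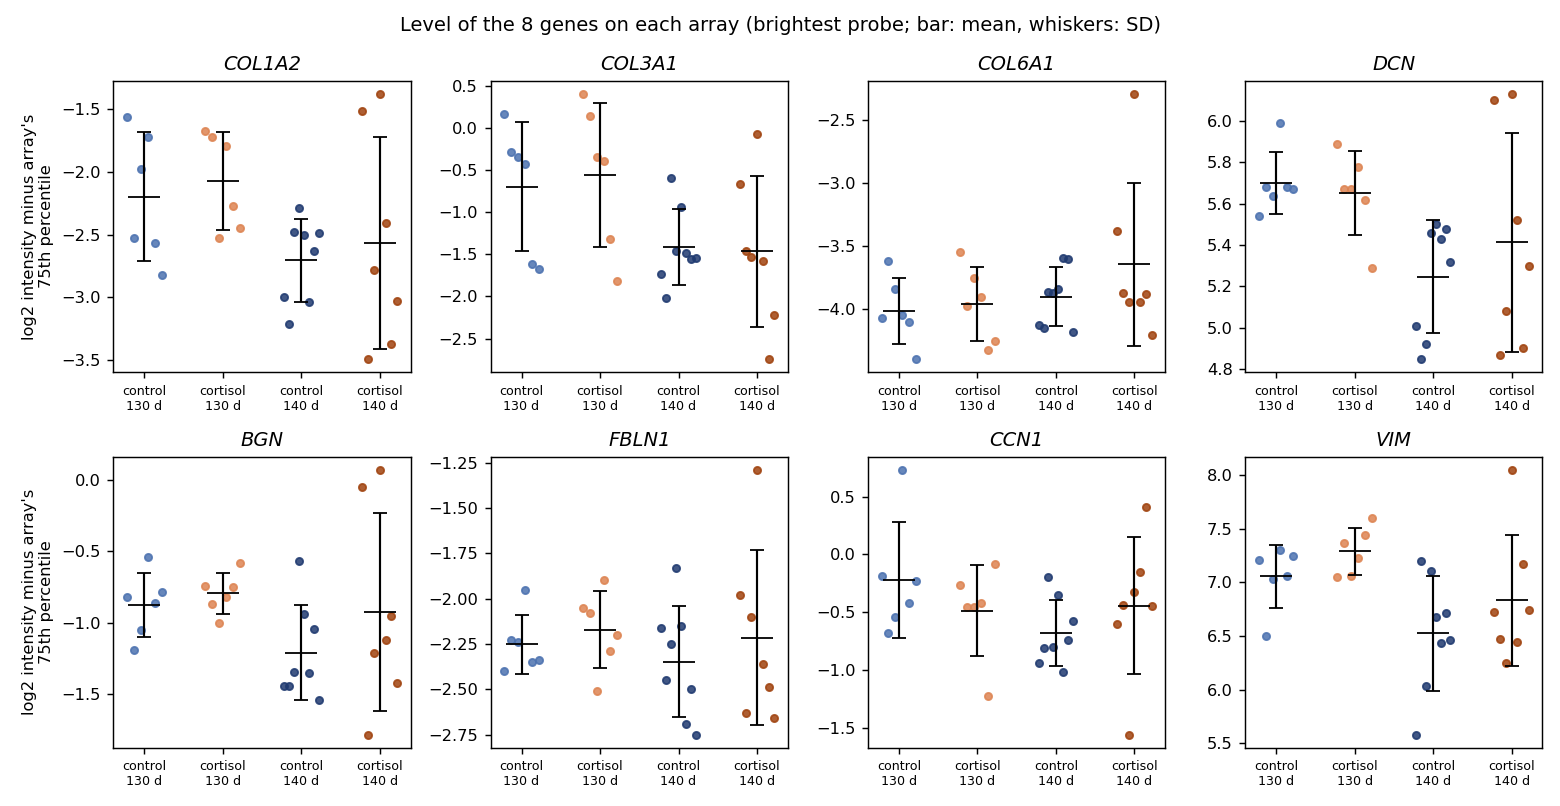
Level of each of the 8 genes on every array, as log2 intensity minus the array's 75th percentile, for the 4 groups. Points are single fetuses, the bar is the group mean and the whiskers the SD; the DCN values of the older controls (4.85 to 5.50) all lie under those of the younger controls (5.54 to 5.99), while the other genes overlap between groups.

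COL3A1 encodes the single chain of collagen III, the fine fibrillar collagen that is plentiful in fetal tissue. At its representative probe, A_70_P048191, the controls ranged from -1.67 to 0.17 at 130 d with a median of -0.38, and from -2.02 to -0.59 at 140 d with a median of -1.51. The cortisol fetuses ranged from -1.82 to 0.40 with a median of -0.37 at 130 d, and from -2.74 to -0.07 with a median of -1.53 at 140 d. The older groups lay lower, with overlap in both arms, and in each younger group replicates 5 and 6, the younger arrays of slide 4, lay well under the rest. The difference was -0.72 ± 0.38 in controls (log2 difference ± SE, adjusted p = 0.189, limma) and -0.91 ± 0.39 in cortisol fetuses (adjusted p = 0.125). With slide as a fixed block the difference in cortisol fetuses was called (-1.14, adjusted p = 0.0211).

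The COL3A1 probe with the most glycine repeats, A_70_P006991, spread less within groups and was called in both arms. Its levels ran from -2.44 to -1.43 (median -2.07) in younger controls and from -3.57 to -2.22 (median -2.76) in older controls. In cortisol fetuses they ran from -2.33 to -1.54 (median -1.91) at 130 d and from -3.45 to -1.96 (median -2.78) at 140 d. Of the older arrays, 6 of 8 controls and 5 of 7 cortisol fetuses lay under every younger array of their arm. The differences were -0.81 ± 0.24 (adjusted p = 0.0205, limma) and -0.82 ± 0.25 (adjusted p = 0.0275). The call in controls was lost without control replicate 1 at 130 d (-0.69, adjusted p = 0.0628), and the call in cortisol fetuses was lost on leaving out any of 6 single arrays, with the difference between -0.80 and -0.70, and with only the cortisol groups in the fit (adjusted p = 0.0536). Normexp background correction ended both (-0.50, adjusted p = 0.244, and -0.65, adjusted p = 0.155).

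The near-copies gave -0.59 ± 0.21 (A_70_P016307, adjusted p = 0.0495) and -0.53 ± 0.23 (A_70_P016306, adjusted p = 0.0946) in controls by limma. In cortisol fetuses they gave -0.59 ± 0.21 (adjusted p = 0.067) and -0.63 ± 0.23 (adjusted p = 0.0705). Both were called in cortisol fetuses with slide as a fixed block (adjusted p = 0.00873 and 0.0178) or a random block (0.043 and 0.0483), and without cortisol replicate 6 at 130 d (-0.71 and -0.77), replicate 1 at 140 d (-0.70 and -0.73) or replicate 4 at 140 d (-0.72 and -0.77). The call for A_70_P016307 in controls lies at the threshold and was lost under 5 of the other ways of processing and on leaving out any of 11 single arrays. All 4 COL3A1 probes thus had the same direction in both arms, and their differences lay between -0.91 and -0.53. After removal of group means they correlated with each other at r between 0.70 and 0.98 over 27 arrays. A further probe, named EE840442 in the files, shares a sequence cluster with COL3A1 but has no symbol, and was looked at outside the rule that chose the genes. Its r with the representative COL3A1 probe within groups was 0.37. It was lower, with a log2 difference of -0.75 ± 0.22 in controls (adjusted p = 0.0196, limma) and -0.70 ± 0.23 in cortisol fetuses (adjusted p = 0.0407).

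**Figure D2:**
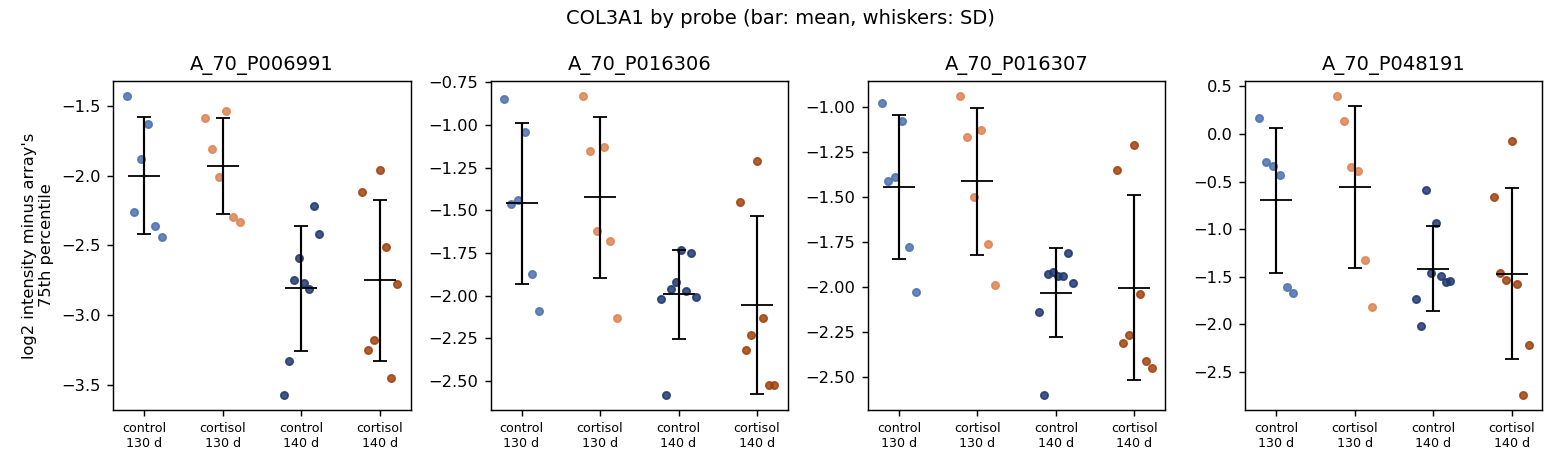
Levels of the 4 COL3A1 probes on every array, as log2 intensity minus the array's 75th percentile; bars are group means and whiskers SDs. At A_70_P006991 the group means fall from -2.0 to -2.81 in controls and from -1.93 to -2.75 in cortisol fetuses, and A_70_P048191 has the widest spread within the younger groups (SD 0.76 and 0.85).

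COL1A2 encodes the second chain of collagen I, the main load-bearing collagen of the heart. Its levels ran from -2.82 to -1.56 (median -2.25) in younger controls and from -3.21 to -2.29 (median -2.56) in older ones. In cortisol fetuses they ran from -2.53 to -1.67 (median -2.03) and from -3.49 to -1.38 (median -2.78). All 8 older controls lay under the mean of the younger ones, whereas among the older cortisol fetuses replicates 1 and 4 lay above every younger one. The differences were -0.51 ± 0.29 (adjusted p = 0.22, limma) and -0.50 ± 0.30 (adjusted p = 0.284). A probe in the same sequence cluster without a symbol, DY492205, gave -0.37 ± 0.20 and -0.41 ± 0.20 and was not called in either arm.

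COL6A1 was the only gene of the 8 with a higher mean at 140 d in both arms. Its levels ran from -4.39 to -3.62 (median -4.05) in younger controls and from -4.18 to -3.59 (median -3.87) in older ones, and these groups overlapped almost fully. The older cortisol fetuses ran from -4.20 to -2.30 (median -3.88), with replicate 4 far above the others, and the younger ones from -4.32 to -3.55 (median -3.94). The differences were 0.11 ± 0.21 (adjusted p = 0.753, limma) and 0.31 ± 0.21 (adjusted p = 0.36).

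DCN, the proteoglycan that decorates collagen fibrils, separated the control groups at its representative probe. The younger controls ran from 5.54 to 5.99 (median 5.67) and the older from 4.85 to 5.50 (median 5.38). No older control reached the lowest younger one, a separation seen in 5.72% of all probes tested. It was seen for 0 of the 8 genes in cortisol fetuses, beside 4.7% of all probes. The difference was -0.45 ± 0.18 (adjusted p = 0.0676, limma), and the other DCN probe, whose control groups overlapped, gave -0.39 ± 0.18 (adjusted p = 0.117). DCN passed the test with quantile normalization (-0.67, adjusted p = 0.0131), with slide as a fixed block (-0.54, adjusted p = 0.0219) or a random block (-0.47, adjusted p = 0.0491), and with only the control groups in the fit (-0.45, adjusted p = 0.0226). In cortisol fetuses the levels ran from 5.29 to 5.89 (median 5.67) at 130 d and from 4.87 to 6.13 (median 5.30) at 140 d. The older group there took in the highest and the lowest values of both, and the difference was -0.24 ± 0.18 (adjusted p = 0.416). The difference between the arms in this change was 0.22 ± 0.25 (adjusted p = 0.974).

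BGN, the other small proteoglycan, had levels from -1.19 to -0.54 (median -0.84) in younger controls and from -1.54 to -0.57 (median -1.35) in older ones. In cortisol fetuses these were -1.0 to -0.58 (median -0.79) and -1.78 to 0.07 (median -1.12). The spread was widest in the older cortisol group, where replicates 1 and 4 lay above every younger array. The differences were -0.34 ± 0.22 (adjusted p = 0.288, limma) and -0.13 ± 0.22 (adjusted p = 0.758). A probe in the same sequence cluster without a symbol, DY507997, had r = 0.89 with BGN within groups. It gave -0.63 ± 0.32 in controls (adjusted p = 0.168, limma) and -0.15 ± 0.33 in cortisol fetuses (adjusted p = 0.81).

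FBLN1 levels ran from -2.40 to -1.95 (median -2.29) in younger controls and from -2.75 to -1.83 (median -2.35) in older ones. In cortisol fetuses they ran from -2.51 to -1.90 (median -2.14) and from -2.66 to -1.29 (median -2.36), so in both arms the older group spanned the younger one. In controls FBLN1 had the smallest difference of the set at its representative probe. The differences were -0.09 ± 0.17 in controls and -0.04 ± 0.18 in cortisol fetuses (adjusted p = 0.74 and 0.905, limma). Both signs turned with other ways of processing. The overlapping FBLN1 probe gave -0.37 ± 0.18 and 0.06 ± 0.19, so in controls near-identical probes differed by more than either SE.

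CCN1 levels ran from -0.68 to 0.73 (median -0.33) in younger controls and from -1.02 to -0.20 (median -0.77) in older ones. In cortisol fetuses they ran from -1.23 to -0.08 (median -0.44) and from -1.56 to 0.41 (median -0.44). The older controls lay low, and the older cortisol fetuses lay on both sides of the younger ones. The differences were -0.46 ± 0.23 in controls (adjusted p = 0.174, limma) and 0.04 ± 0.24 in cortisol fetuses (adjusted p = 0.942). On leaving out single arrays, the difference in controls ranged from -0.55 to -0.26. The difference between the arms in the age change was 0.49 ± 0.34 (adjusted p = 0.974).

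VIM, the fibroblast marker, ran from 6.50 to 7.30 (median 7.13) in younger controls and from 5.58 to 7.20 (median 6.57) in older ones. In cortisol fetuses it ran from 7.05 to 7.60 (median 7.30) and from 6.25 to 8.05 (median 6.72). Of the older cortisol fetuses, 5 of 7 lay under every younger one, and replicate 4 lay above all. The differences were -0.53 ± 0.24 (adjusted p = 0.119, limma) and -0.46 ± 0.25 (adjusted p = 0.232). Quantile normalization put VIM past the threshold in controls (-0.76, adjusted p = 0.0265).

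For the representative probe of each gene the 4 group means can be ordered, but no neighbouring means in that order differed by more than the larger SD of the pair. The control at 140 d was the lowest group for 6 of the 8 genes, COL3A1 and COL6A1 being the exceptions. In the older cortisol group, replicate 4 was the highest array for 7 of the 8 genes. Its 75th percentile intensity, to which its levels are relative, was the lowest of the 27 arrays (601.6, beside 817.9 to 1078.8 for the rest of its group), and the part of this in its high levels was not tested. Without it, COL3A1 (-1.15, adjusted p = 0.0362) and VIM (-0.66, adjusted p = 0.0317) passed the limma test in cortisol fetuses. No other single array changed the count of 0 genes called in either arm.

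Within single slides the age difference was not uniform. In controls, 7 of 8 genes were lower at 140 d on slide 2 (median difference -0.45) and 6 of 8 on slide 3 (median -0.56), each with 2 arrays against 2 arrays. On slide 4, with 1 older array against 2, it was 4 of 8 (median 0.09). In cortisol fetuses it was 8 of 8 on slide 2 (median -0.75) and 6 of 8 on slide 4 (median -0.32), but 1 of 8 on slide 3 (median 0.24), which holds replicate 4 of the older group. The COL3A1 probes were not uniform either. The representative probe A_70_P048191 differed by -1.82, -0.64 and 0.70 in controls and by -1.77, -0.46 and -1.17 in cortisol fetuses on slides 2, 3 and 4. A_70_P016306 was likewise higher on slide 4 in controls (0.25), where A_70_P016307 had -0.04 and A_70_P006991 -0.37. In the other 5 within-slide comparisons all 4 probes were lower at the older age. Slides 1 and 5 hold no array of the younger age.

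**Figure D3:**
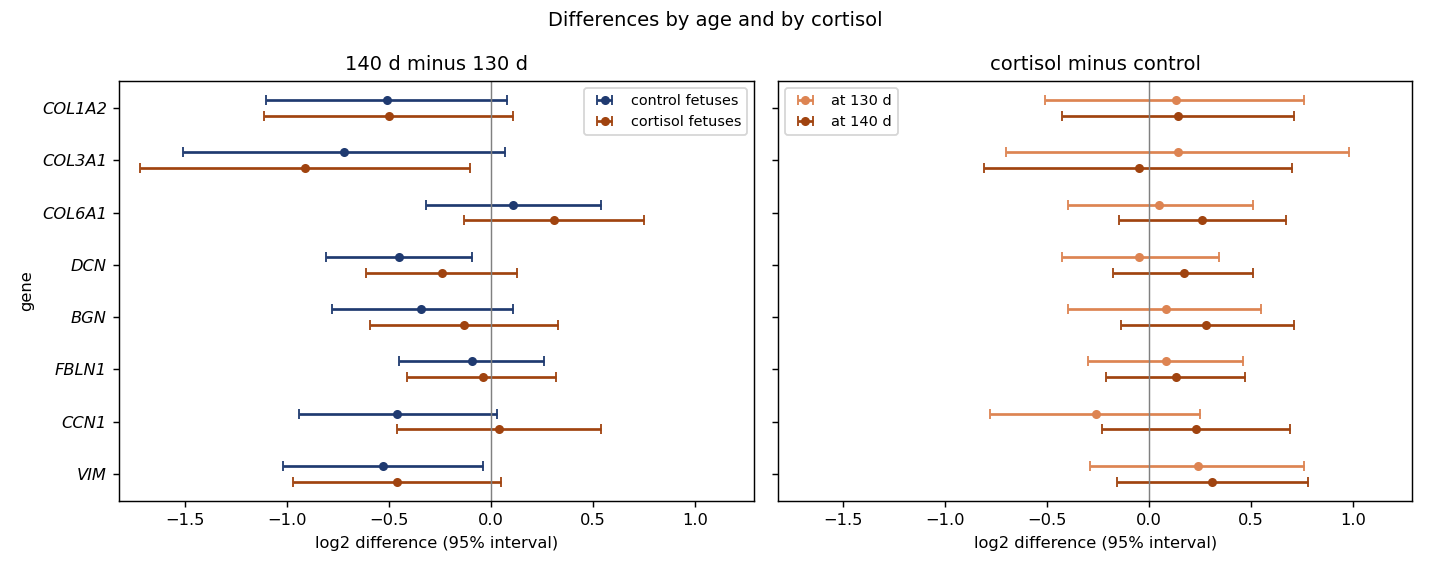
Log2 differences of the 8 genes at their representative probes with 95% intervals from limma. The left panel gives 140 d minus 130 d in controls and in cortisol fetuses, and the right panel cortisol minus control at each age; the age differences lie mostly under 0 (COL3A1 at -0.72 and -0.91) and every interval on the right includes 0.

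Averaging the age difference over both arms was added after the values above were seen. It sets 15 older against 12 younger fetuses. On that average 3 of the 8 genes were called lower and 0 higher, where 32.1% of all probes were called, 17.9% lower and 14.2% higher. They were COL3A1 (-0.82 ± 0.27, adjusted p = 0.0247, limma), VIM (-0.49 ± 0.17, adjusted p = 0.0303) and DCN (-0.35 ± 0.13, adjusted p = 0.0368). COL1A2 had -0.50 ± 0.21 (adjusted p = 0.0643) and the other genes adjusted p-values of 0.267 or more. COL1A2 was called with slide as a fixed block (-0.62, adjusted p = 0.017) or a random block (-0.52, adjusted p = 0.0495), whereas VIM was lost with the fixed block (-0.44, adjusted p = 0.087). By probe, 7 of 16 were called lower, which are all 4 of COL3A1, both of VIM and 1 of DCN. The count fell to 1 gene with shifting by the median or with the authors' deposited values, and to 0 with normexp. It fell to 1 without control replicate 4 at 130 d, cortisol replicate 1 at 130 d or cortisol replicate 3 at 140 d. The DCN call was lost on leaving out any of 10 single arrays (adjusted p from 0.0512 to 0.0655), the VIM call on leaving out any of 3 and the COL3A1 call any of 2.

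The glycine repeat allowed collagen-like probes without a symbol to be found by sequence alone. At least 5 GGN triplets in a row at 9-base spacing, on the strand as printed, were present in 27 of 15008 probes (0.18%). On the opposite strand alone it was found in 2 more. All 27 were tested, of which 7 carry a collagen symbol, 0 another symbol and 20 none. The 3 probes with the symbol COL1A2 or COL3A1 were left out. Of the other 24, 21 had a lower mean at 140 d in controls and 22 in cortisol fetuses, beside 50.9% and 56.2% of all probes. The 24 still hold DY492205, which has no symbol but shares a sequence cluster with COL1A2. Its r with the COL1A2 probe within groups was 0.95, so it may measure that gene. Of the 24, 5 were called lower in controls and 3 in cortisol fetuses, and 0 higher. Of all probes, 9.35% were called lower and 9.77% higher in controls, and 8.52% and 4.94% in cortisol fetuses. The median difference of the 24 was -0.47 in controls and -0.40 in cortisol fetuses, beside -0.01 and -0.04 over all probes. The lowest was the probe named DY505018, with a difference of -1.04 ± 0.25 in controls (adjusted p = 0.00606, limma), and the highest DY512540, with 0.48 ± 0.27 (adjusted p = 0.21). Which collagen each of the 20 measures is not settled. Several may measure the same gene, and some may measure COL1A2 or COL3A1. The 20 are thus not independent of each other or of the probes left out. A match of letters is a description and does not prove a collagen.

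**Figure D4:**
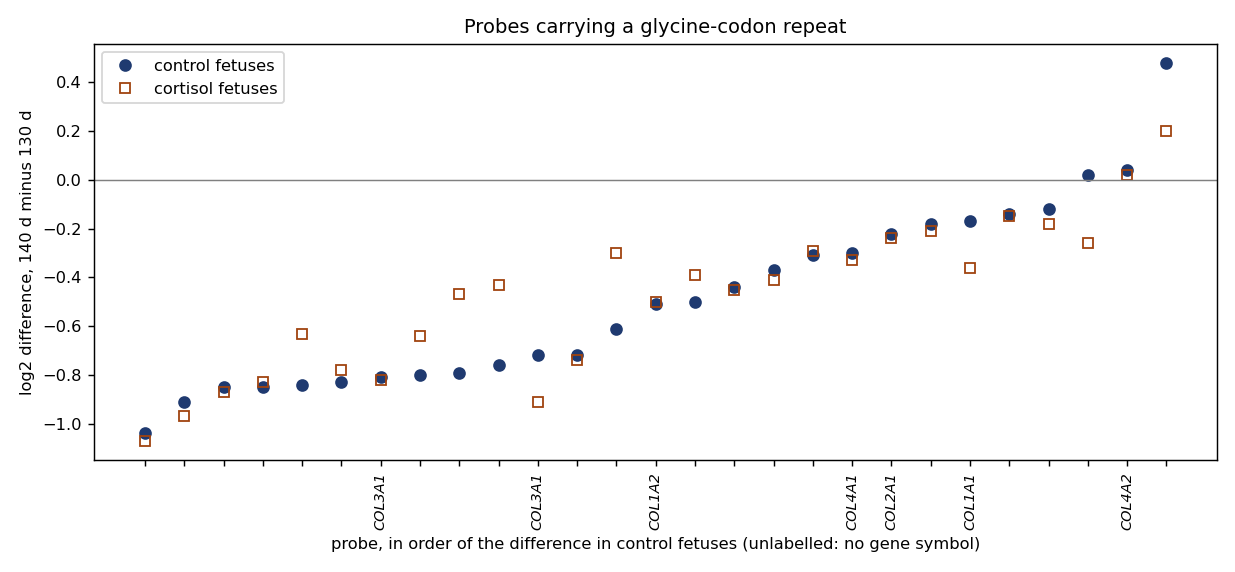
Log2 difference, 140 d minus 130 d, of the 27 probes with at least 5 GGN triplets at 9-base spacing, in order of the difference in controls (filled circles), with cortisol fetuses as open squares. Probes with a gene symbol are labelled; most points lie under 0, from -1.04 to 0.48 in controls.

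Among other genes of the matrix, 25 of 110 listed were measured under a symbol, with no further proteoglycan and no collagen-processing enzyme among them. In controls 6 of the 25 were called lower and 3 higher from 130 d to 140 d, with a median of -0.30. In cortisol fetuses 2 were called lower and 0 higher, with a median of -0.23. All probes gave 9.35% lower and 9.77% higher in controls, and 8.52% and 4.94% in cortisol fetuses. COL5A2, a chain of the collagen V that nucleates collagen I fibrils, was lower in controls (-0.72 ± 0.19, adjusted p = 0.0115, limma) and had -0.50 ± 0.20 (adjusted p = 0.0957) in cortisol fetuses. It was the only one called among the 7 other collagens measured. COL1A1, which encodes the partner chain of COL1A2, had -0.59 ± 0.34 (adjusted p = 0.228) and -0.33 ± 0.35 (adjusted p = 0.586). Another COL1A1 probe, A_70_P047991, gave -0.17 ± 0.26 in controls (adjusted p = 0.686, limma) and -0.36 ± 0.27 in cortisol fetuses (adjusted p = 0.407).

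In controls, receptors and regulators of the matrix were called in both directions with age. In cortisol fetuses 0 of 6 receptors and 0 of 10 regulators were called higher, and 1 of each lower. TGFB2, a growth factor that drives collagen synthesis, was lower in controls (-0.98 ± 0.25, adjusted p = 0.00787, limma), whereas its receptor TGFBR2 was higher (0.46 ± 0.12, adjusted p = 0.0114). In cortisol fetuses TGFB2 was not called, though its mean went from -1.66 at 130 d to -2.40 at 140 d. Its difference there lay between -0.87 and -0.63 over the ways of processing, with adjusted p from 0.0163 to 0.19 by limma. The means of TGFBR2 in cortisol fetuses were -1.87 and -1.91. SMAD2, which carries the signal to the nucleus, was lower in both arms (-0.35 ± 0.09, adjusted p = 0.00894, and -0.39 ± 0.09, adjusted p = 0.00688). The integrin gene ITGB5 was lower in controls (-0.65 ± 0.15, adjusted p = 0.00524) and ITGA5 higher (0.38 ± 0.11, adjusted p = 0.0152). Neither was called in cortisol fetuses, with means of -1.10 and -1.34 for ITGB5 and -4.02 and -3.93 for ITGA5. HMMR, a hyaluronan receptor that also acts in cell division, was lower in cortisol fetuses (-0.67 ± 0.20, adjusted p = 0.025). In controls HMMR was not called, with means of -2.11 at 130 d and -2.46 at 140 d. With normexp background correction the calls for all of these but COL5A2 were lost.

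Cortisol against control gave no call for any of the 8 genes. At 130 d the differences ran from -0.26 to 0.24 (median 0.08, beside 0.01 over all probes), and at 140 d from -0.05 to 0.31 (median 0.20, beside -0.04). By limma 0.0% of all probes were called at either age, with 455 of 12778 at an unadjusted p under 0.05 at 130 d and 727 at 140 d, and 0 of the 8 genes among them. The groups overlapped for all 8 genes at both ages, where 0.446% of all probes at 130 d and 0.0157% at 140 d had groups that did not overlap. The smallest adjusted p of the 8 was 1.0 at 130 d and 0.808 at 140 d. The 95% intervals still allow changes of some size. VIM had 0.31 (-0.16 to 0.78) at 140 d, BGN 0.28 (-0.14 to 0.71), COL6A1 0.26 (-0.15 to 0.67) and COL3A1 -0.05 (-0.81 to 0.70). DY507997, the probe in the BGN cluster, gave 0.55 ± 0.31 (adjusted p = 0.808, limma) at 140 d and 0.07 ± 0.35 at 130 d. The other COL6A1 probe gave 0.0 (-0.47 to 0.47) at 140 d. At 130 d it gave -0.24 (-0.76 to 0.28), beside 0.05 at the representative probe. Averaged over both ages, the largest difference was that of VIM, 0.27 ± 0.17 (adjusted p = 0.999).

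The cortisol effect did not pass the test for a difference between the ages for any of the 8 genes, for which 0.0% of all probes were called and 743 had an unadjusted p under 0.05. The largest value was that of CCN1, which had -0.26 ± 0.25 at 130 d and 0.23 ± 0.22 at 140 d. On leaving out single arrays, the CCN1 value at 130 d ranged from -0.35 to -0.07 and the difference between ages from 0.30 to 0.68. Of the 25 other matrix genes 0 were called with cortisol. The smallest unadjusted p at 130 d were those of SMAD3 (0.70 ± 0.24, adjusted p = 1 by limma) and TGFBR2 (0.32 ± 0.13, adjusted p = 1). At 140 d they were those of TGFB2 (0.45 ± 0.24, adjusted p = 0.808) and ITGA5 (-0.18 ± 0.10, adjusted p = 0.808). SMAD3 lay near background at 130 d, being well above it on 4 of 6 control and 5 of 6 cortisol arrays.

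Within groups, most of the 8 genes varied together from fetus to fetus. Group means were removed, and each of the 28 gene pairs was correlated over 27 arrays, with p-values from 100000 permutations within groups, adjusted over the 28 pairs. Of these, 14 pairs passed at an adjusted p under 0.05, all with a positive r, and 27 of 28 had an r above 0 (median 0.53). COL1A2 correlated with DCN (r = 0.77, permutation p = 0.00019, adjusted p = 0.00168; rho = 0.66, permutation p = 0.00086, adjusted p = 0.00679), and r was 0.66 without the 2 arrays farthest from the median of COL1A2. COL1A2 correlated as closely with COL3A1 (r = 0.76, permutation p = 6e-05, adjusted p = 0.00154; rho = 0.74, permutation p = 7e-05, adjusted p = 0.00196), with 0.78 without the 2 farthest arrays. BGN correlated with FBLN1 (r = 0.76, permutation p = 0.00024, adjusted p = 0.00168; rho = 0.58, permutation p = 0.00544, adjusted p = 0.019) and r was then 0.65.

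Not all pairs were alike. BGN and COL3A1 had r = 0.32, which was 0.00 without cortisol replicates 1 and 4 at 140 d. COL6A1 with FBLN1 had r = 0.61 (permutation p = 0.0199, adjusted p = 0.0429; rho = 0.38, permutation p = 0.0639, adjusted p = 0.128), and r = 0.20 without cortisol replicates 4 and 7 at 140 d, so it rests on those arrays. CCN1 passed with none of the other 7 genes (r from 0.03 to 0.28), and VIM passed with BGN alone (r = 0.61, permutation p = 0.00658, adjusted p = 0.0205; rho = 0.61, permutation p = 0.00328, adjusted p = 0.0153; r = 0.57 without the 2 farthest arrays). The count of pairs fell to 9 without cortisol replicate 1 at 140 d, to 8 without replicate 4, and to 6 with normexp. Slides are shared across groups, and 12 pairs passed when slide means were removed as well. As a yardstick, 5.25% of all other tested probes had an r above 0.5 with COL1A2, and 0.477% with CCN1. All values of an array share its labelling and scaling.

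**Figure D5:**
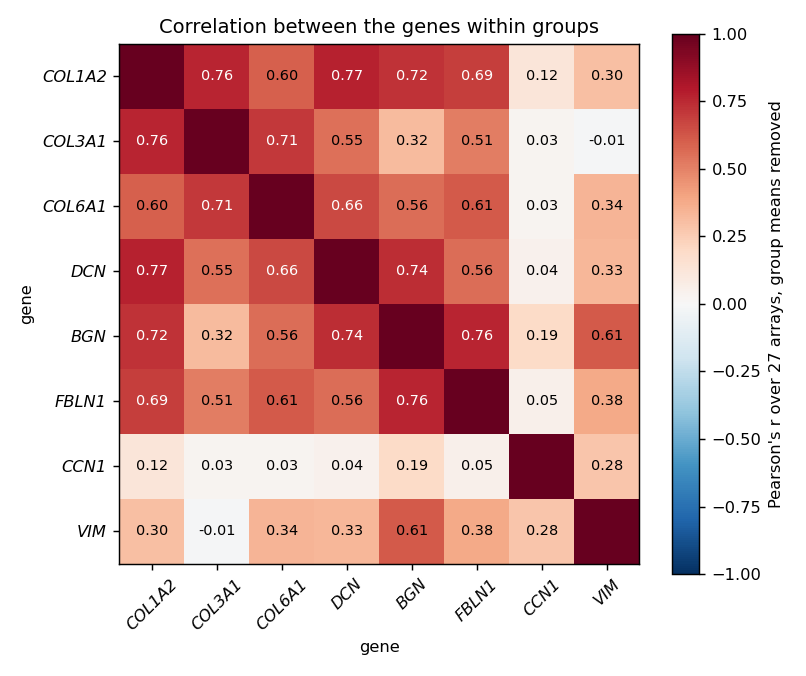
Pearson's r between the 8 genes over 27 arrays after removal of group means, from -1 (blue) to 1 (red). The 2 fibrillar collagens, COL6A1, the proteoglycans and FBLN1 form a block of positive values, highest for COL1A2 with DCN at 0.77, while CCN1 has values between 0.03 and 0.28.

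Outside the set, the named genes most like each member over the 27 arrays are given here as a description. BGN was closest to COL12A1 (r = 0.92), a collagen that lies on fibril surfaces, and to INHBA (r = 0.86), a subunit of activin. DCN was closest to COL1A1 and COL5A2 (r = 0.78 each). VIM was closest to TIMP1 (r = 0.84), an inhibitor of matrix-degrading proteases, and to INHBA (r = 0.77). COL1A2 was closest to CPE (r = 0.84) and SERPINF1 (r = 0.83), and FBLN1 to FST (r = 0.79), which encodes the activin-binding protein follistatin, and PTGS2 (r = 0.76). COL3A1 was closest to PSIP1 (r = 0.77) and GHR (r = 0.76), COL6A1 to PTGS1 and SLCO2A1 (r = 0.71 each), and CCN1 to HYAL2 (r = 0.59) and ACTG1 (r = 0.54).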

How the data were processed

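Spot intensity values in the scanner files were background-subtracted and detrended by the scanner software, per the file headers (Agilent Feature Extraction 10.1.1.1, as listed in the submitters' processing notes). The authors' deposited table of log2 values differed from log2 of those intensities by 1 constant per array, whose origin is not stated. Outlier spots were left out and spots of a probe averaged. Of 15008 probes, 12778 exceeded background on 6 or more arrays and entered the tests; 1074 (8.41%) had a symbol. Saturated spots numbered 0. Limma 3.58.1 in R 4.3.3 (lmFit, eBayes) fitted all 4 groups together, with 2-sided p-values and Benjamini-Hochberg adjustment; the step was tested on simulated data. Python 3.11.15 with numpy 2.4.6 gave the permutations. The genes and lists were chosen with earlier results of these data known. Named beside the 8 genes were at most 6 other matrix genes past the threshold by smallest p, or else the 2 with the smallest p, and the 2 most alike genes; COL1A1 and probes without a symbol were named after their values were seen. Alternatives were other background corrections, scalings, filters, probe rules, slide and replicate blocks, and leaving out each array. The number of arrays limits the precision.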

Additional observations from a re-analysis of the deposited data

Results flagged for a closer look

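Of 32 sets of values (8 genes in 4 groups), 4 held an array far from the rest of its group, by the gap to its nearest neighbour over the group's range; chance gives about 1 in 20. In controls at 130 d, replicate 4 was highest for CCN1 (0.73, a gap of 0.92 in a range of 1.41) and for DCN (5.99, a gap of 0.31 in a range of 0.45), and it was the highest array of that group for 5 of the 8 genes. Replicate 2 of the same group was lowest for VIM (6.50, a gap of 0.53 in a range of 0.80). In cortisol fetuses at 130 d, replicate 5 was lowest for CCN1 (-1.23, a gap of 0.77 in a range of 1.15).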

How the results depend on the processing

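In controls the count of 0 genes called with age became 2 with quantile normalization (DCN and VIM), 1 with slide as a fixed block, 1 with slide as a random block and 1 with only the compared groups (DCN each time), and 1 with the next brightest COL3A1 probe; in cortisol fetuses it became 1 with slide as a fixed block (COL3A1, -1.14, adjusted p = 0.0211 by limma). Leaving out single arrays gave 0 in controls and 0 to 2 in cortisol fetuses. The count of 3 over both arms became 0 with normexp, 1 with the median shift and 1 with the authors' values, 4 with slide as a random block and 4 with the replicate block (COL1A2 joining, adjusted p = 0.0369 with the replicate block), and 1 to 4 without single arrays; with slide as a fixed block it was 3, COL1A2 in place of VIM. The 14 correlated pairs became 6 with normexp and 8 to 15 without single arrays. Counts for cortisol were 0 under every alternative run. Over all probes, calls with age fell from 2443 to 536 in controls and from 1720 to 339 in cortisol fetuses with normexp, which moved the median of all probes in controls to 0.15. The share of calls that were higher was 51.1% in controls, 60.8% with normexp, 70.2% with the median shift and 71.3% with the authors' values, and in cortisol fetuses 36.7%, 52.2%, 59.6% and 64.1%. The labels state no pairing of fetuses by replicate number, and weak correlations cannot exclude it. Same-numbered deviations correlated between -0.17 and 0.36, with 0 of 6, 1 of 6, 2 of 6 and 3 of 7 pairs over 0.1 in the 4 comparisons. Every pair over 0.1 lay on the same slide, so number and slide cannot be told apart there. With the replicate block 0 of 8 genes were called with age in either arm or with cortisol. The near-copy COL3A1 probes were called in cortisol fetuses with that block (A_70_P016307, adjusted p = 0.041, and A_70_P016306, adjusted p = 0.037).

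Small differences turned sign. FBLN1 with age in controls was 0.09 with normexp, 0.00 with the authors' values, 0.07 with slide as a fixed block and 0.02 with the replicate block. In cortisol fetuses it was 0.06 with quantile normalization, 0.04 with the median shift, 0.06 with the authors' values, 0.01 with the mean of its probes and 0.01 with the replicate block. Over both arms it was 0.03, 0.01 and 0.03 with those scalings, 0.02 with the fixed slide block and 0.01 with the replicate block. For cortisol at 130 d, the mean of the probes gave -0.09 for COL6A1 and -0.09 for FBLN1. At 140 d, the fixed slide block gave -0.06 for COL1A2 and -0.01 for FBLN1, and COL3A1 was 0.04 with normexp and 0.03 with its next probe. For the difference between ages, normexp gave -0.22 for COL1A2, -0.21 for COL6A1 and -0.25 for FBLN1, the fixed slide block -0.19 for COL1A2 and -0.09 for FBLN1, the random slide block -0.01 for COL1A2, and the replicate block -0.01 for FBLN1. Averaged over ages, CCN1 was 0.01 with normexp and 0.01 with the mean of its probes, and COL3A1 -0.06 with the fixed slide block. In cortisol fetuses ITGA5 with age was -0.04 with normexp, and TGFBR2 0.06, 0.05 and 0.07 with quantile normalization, the median shift and the authors' values. The cause was not tested.

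Leaving out single arrays turned other small differences too. With age in cortisol fetuses BGN ranged from -0.29 to 0.01, CCN1 from -0.11 to 0.22, FBLN1 from -0.20 to 0.03 and TGFBR2 from -0.09 to 0.07. For cortisol at 130 d COL3A1 ranged from -0.06 to 0.39, COL6A1 from -0.03 to 0.13 and DCN from -0.09 to 0.03. At 140 d COL1A2 ranged from -0.06 to 0.29, COL3A1 from -0.29 to 0.16 and FBLN1 from -0.02 to 0.21. The difference between ages ranged from -0.19 to 0.17 for COL1A2, -0.44 to 0.02 for COL3A1, -0.02 to 0.30 for COL6A1, -0.10 to 0.13 for FBLN1 and -0.13 to 0.19 for VIM. Averaged over ages CCN1 ranged from -0.09 to 0.08 and COL3A1 from -0.08 to 0.17.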
